A study of Mus musculus with 6 samples.

Results

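Mucin-type O-glycans and the sialic acids that cap many cell-surface glycans are built by families of Golgi transferases, and 57 genes of 8 such families are described here in the HPV-negative mouse oral carcinoma line MOC2. The genes were taken by symbol from the table of raw counts: numbered members of the Galnt, B3galt, B3gnt, B4galt, St3gal, St6gal, St6galnac and St8sia families, 57 of 55418 gene symbols. The 3 libraries labelled EphA4 knockout came from 1 CRISPR clone, named H3, and the 3 control libraries from MOC2 cells carrying a control CRISPR edit. All cells were untreated, had been thawed and passaged 2 times, and carried 1 batch label. Polyadenylated RNA was sequenced in bulk, with 35115926 to 41775031 counts per library. With 1 clone, the edited gene cannot be told apart from other differences between that clone and the control cells, and no label states whether replicates were cultured separately, so the p-values rest on a spread between libraries that may be purely technical.

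Mucin-type O-glycosylation begins when a Galnt enzyme moves N-acetylgalactosamine (GalNAc) onto a serine or threonine of a protein. Other enzymes then add galactose and N-acetylglucosamine (GlcNAc), which makes the core structures and chains: the B3galt and B4galt families add galactose and the B3gnt family adds GlcNAc. The St3gal, St6gal, St6galnac and St8sia families end chains with sialic acid, on O-glycans, N-glycans and glycolipids. In carcinomas, short and heavily sialylated O-glycans on mucins are a familiar feature. Transcript counts give neither enzyme activity nor glycan structure, and in bulk RNA fewer cells of a type and less RNA per cell cannot be told apart.

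EphA4 knockout replicate 3 stood apart from the other libraries of its group, at 30.8 and 31.7 chi-square units per degree of freedom over gene counts, where replicates 1 and 2 differed by 4.41 and pairs of control libraries by 6.81 to 8.89. The transcript of the targeted gene was higher, not lower, in the libraries labelled knockout. Transcript counts do not show whether the EphA4 protein was lost, and this was not tested. Epha4 had 97.4, 103 and 98.1 CPM (counts scaled to library size with TMM factors) in the libraries labelled EphA4 knockout, against 51.4, 59.8 and 54.0 CPM in control. Its log2 fold change was 0.86 (SE 0.06, edgeR adjusted p = 2.1e-06), so every direction given here is that of libraries by their label, with more and not less Epha4 transcript. The epithelial markers Cdh1 and Epcam averaged 800 ± 24.7 and 627 ± 15.9 CPM (SD, n = 3) in knockout-labelled libraries, against 725 ± 6.85 and 954 ± 30.6 CPM in control. The squamous markers Krt5 and Trp63 were at or near 0 in both groups, with means of at most 0.0181 CPM. Of the other keratins listed, Krt14 and Krt17 were lower, averaging 1.83 and 0.274 CPM in knockout-labelled libraries and 3.72 and 0.754 CPM in control, and Krt6a was higher, at 1.91 and 0.271 CPM. The summed level of 6 fibroblast markers was 1.91 to 2.03 CPM in knockout-labelled libraries and 44.7 to 47.3 CPM in control; 4 of the 6 were lower by the test, while Lum had 0 counts everywhere and Col1a2, which is among those not tested, averaged 0.265 and 0.044 CPM. The summed level of 6 leukocyte markers was 0.272 to 0.503 CPM in knockout-labelled libraries and 0.0283 to 0.264 CPM in control. That of 4 endothelial markers was 0.587 to 1.06 CPM in knockout-labelled libraries and 1.1 to 1.46 CPM in control, and that of 4 muscle markers 0 to 0.0839 and 0.481 to 0.816 CPM. The part of these markers in the results that follow was not tested.

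Most of the transferase genes that could be tested were lower in the knockout-labelled libraries. Of the 57 genes, 9 had 0 counts in all 6 libraries, another 8 had 1 to 9 counts in total, and a further 4 had at least 10 counts but did not pass the filter on low counts. The remaining 36 were tested with edgeR at an adjusted p of 0.05: 25 were lower, 5 were higher and 6 did not pass. Without EphA4 knockout replicate 3, 38 were tested, of which 25 were lower and 6 higher. Across all 15199 tested genes 71.5% passed, 38.8% as lower and 32.7% as higher, while among these 36 genes 69.4% were lower and 13.9% higher. Falls of at least 1 on the log2 scale were seen in 15 of the 36 genes (41.7%, against 20.1% of all tested genes), and rises of that size in 4 (11.1%, against 10.3%). The 3 knockout-labelled libraries did not overlap with the 3 control libraries for 32 of the 36 genes, or 88.9%, against 76.1% of all tested genes. The median log2 fold change was -0.70 over the 36 genes, unchanged with genes of 0 counts set to their bound, and -0.04 over all tested genes. Of the 36 genes, 8 reached the filter through the control libraries alone: B3galt1, B3gnt5, B3gnt6, Galnt15, Galnt17, Galnt18, St3gal3 and St8sia1. The 1 gene that reached it through the knockout-labelled libraries alone was St6galnac6. These 9 had to differ, so their p-values below are no independent support for a difference. All 9 are among the 15 falls and 4 rises of at least 1 on the log2 scale. The shares describe the genes that passed and are no test of the set.

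**Figure D1:**
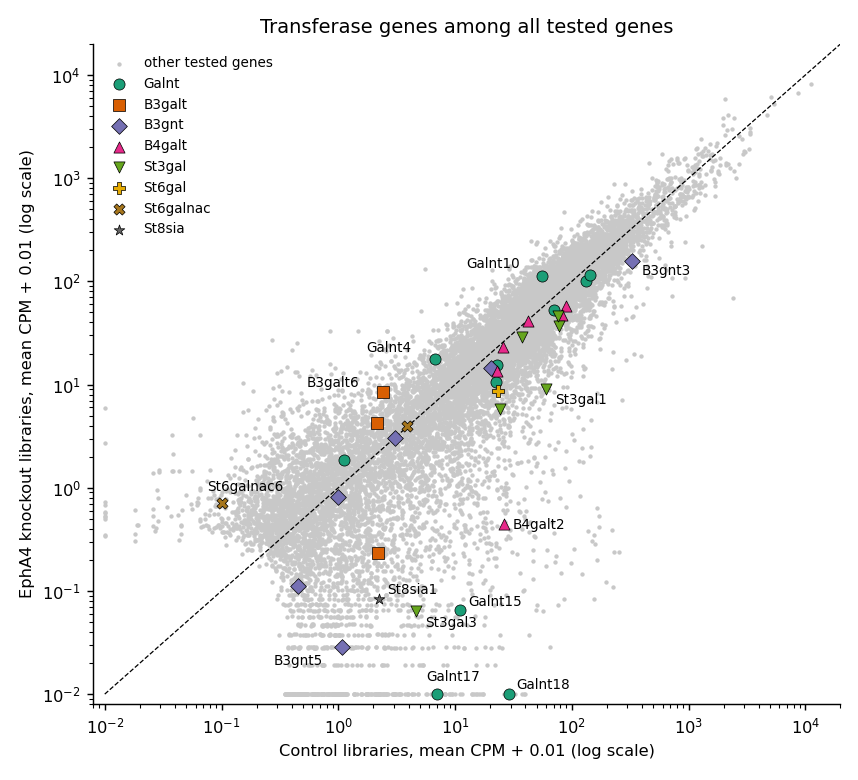
Mean CPM plus 0.01 of each tested gene in the 3 knockout-labelled libraries (vertical, log scale) against the 3 control libraries (horizontal, log scale), with the 36 tested transferase genes marked by family and other genes in grey. Most marked points lie below the dashed line of equal level; Galnt17 and Galnt18 lie at the bottom edge with 0 counts in the knockout-labelled libraries.

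The Galnt family, which starts O-glycans, had 3 members that were present in control and almost without counts in the knockout-labelled libraries, and 2 others rose. Of 17 genes 11 were tested; 8 were lower, 2 higher and 1 did not pass. Galnt18 had 0 counts in each of the 3 knockout-labelled libraries, against 34.1, 25.5 and 27.4 CPM in control (1263, 900 and 1141 counts), and was at least 1056-fold lower (taking 3 counts over the 3 libraries as the floor). Galnt17, a relative of Galnt18, also had 0 counts in every knockout-labelled library, against 6.58, 7.28 and 7.13 CPM in control, and was at least 255-fold lower. Galnt15 had 0.112, 0.0542 and 0 CPM in knockout-labelled libraries, against 11.8, 9.46 and 11.6 CPM in control. No knockout-labelled library came near a control library for any of these 3 genes. The log2 fold change of Galnt15 was -7.55 (SE 0.54, edgeR adjusted p = 2.23e-06), and it was -8.46 without EphA4 knockout replicate 1 and -6.94 without EphA4 knockout replicate 3.

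Galnt10 and Galnt4 went the other way. Galnt10 had 114, 119 and 109 CPM in knockout-labelled libraries, against 59.3, 54.8 and 53.0 CPM in control. All 3 knockout-labelled libraries were above all 3 control libraries, 2.05-fold higher (log2 fold change 1.03, SE 0.05, edgeR adjusted p = 3.73e-07). Galnt4 had 18.7, 17.6 and 17.0 CPM in knockout-labelled libraries, against 5.56, 7.22 and 7.27 CPM in control, and was 2.66-fold higher (log2 fold change 1.41, SE 0.13, edgeR adjusted p = 1.34e-05). Poc1b, which overlaps 8.25% of the exon bases of Galnt4, averaged 26.4 ± 1.24 CPM in knockout-labelled libraries and 29.1 ± 1.12 CPM in control and did not pass (edgeR adjusted p = 0.0845).

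Galnt3 and Galnt1, the highest Galnt genes per kb in control by the counts as given, fell by small amounts. Galnt3, whose product acts on the hormone FGF23, had 113, 114 and 120 CPM in knockout-labelled libraries, against 144, 147 and 141 CPM in control, a log2 fold change of -0.32 (SE 0.04, edgeR adjusted p = 6.7e-05). Galnt1, a broadly expressed initiating enzyme, had 102, 99.2 and 98.2 CPM in knockout-labelled libraries, against 131, 127 and 138 CPM in control, a log2 fold change of -0.41 (SE 0.04, edgeR adjusted p = 2.15e-05). The groups did not overlap for either gene. Galnt12 had 9.68, 10.3 and 12.03 CPM in knockout-labelled libraries, against 20.4, 24.4 and 22.3 CPM in control, with a log2 fold change of -1.07 (SE 0.11, edgeR adjusted p = 2.94e-05). Galnt7 and Galnt11 fell by 0.42 and 0.59 on the log2 scale.

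Galnt2 is hard to read in these counts. It had 2.35, 1.46 and 1.72 CPM in knockout-labelled libraries, against 1.08, 1.19 and 1.08 CPM in control; the groups did not overlap, but the change did not pass (log2 fold change 0.72, SE 0.30, edgeR adjusted p = 0.0594). It passed without EphA4 knockout replicate 2 (adjusted p = 0.0448) and without EphA4 knockout replicate 3 (adjusted p = 0.0339). In the annotation whose symbols match the table, 90% of the exon bases of Galnt2 also belong to Gm20388, a gene model on the same strand with 0 counts in all 6 libraries, so reads there may not have been counted for either. The other 6 Galnt genes were not tested: Galnt5, Galnt9 and Galnt14 had 0 counts in all libraries, Galnt6 and Galnt13 had 3 and 2 counts in total, and Galnt16 had 8 counts over the knockout-labelled libraries and 13 over control.

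**Figure D2:**
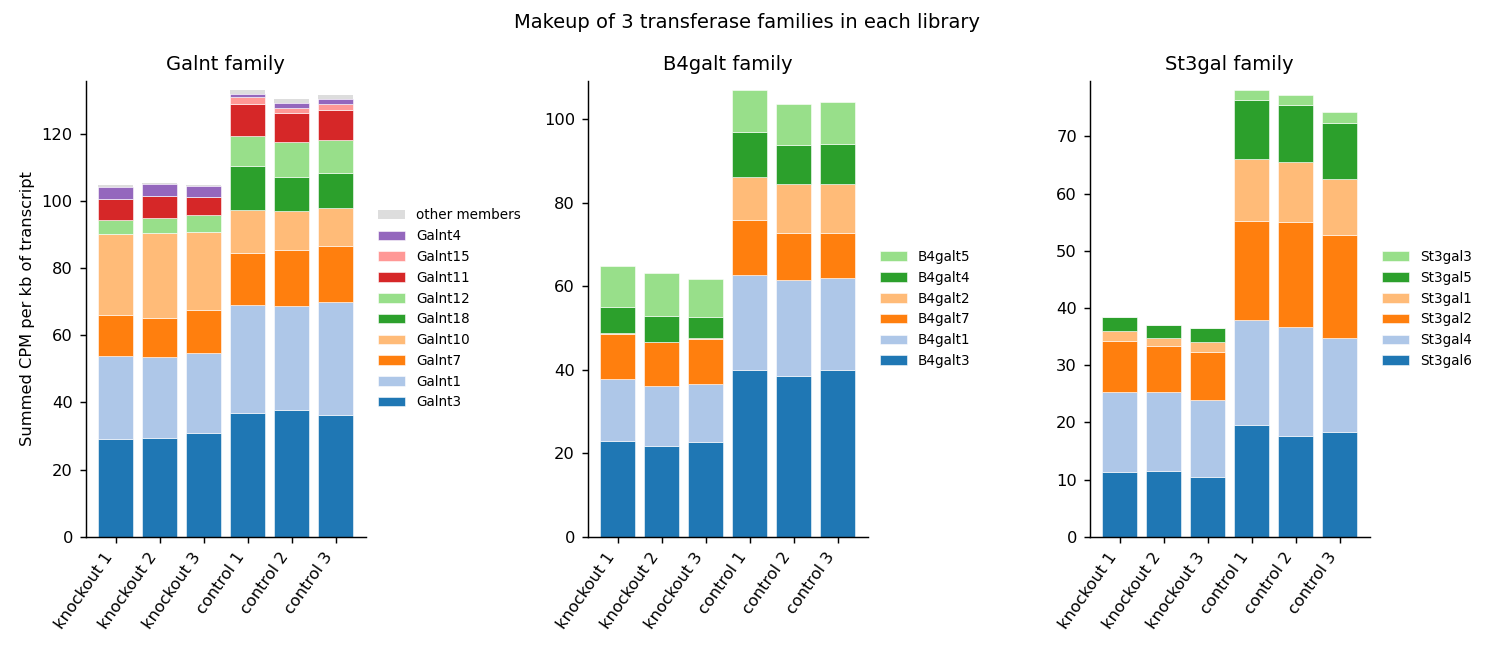
Summed CPM per kb of transcript of the Galnt, B4galt and St3gal families in each library, split by gene, with knockout-labelled libraries on the left and control libraries on the right of each panel. Each knockout-labelled bar is shorter than each control bar in all 3 panels, and the Galnt10 segment is larger while Galnt18 is missing.

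Per length, Galnt10 took a larger share of the family and Galnt18 none. Dividing CPM by the length of the longest protein-coding transcript in kb, the Galnt genes together had 105 ± 0.288 CPM per kb (SD, n = 3) in knockout-labelled libraries and 132 ± 1.34 in control. Reads of Galnt2 may be missing from this sum, as 90% of its exon bases also belong to Gm20388. The sum and the shares below hold for the counts as given. Galnt3 held 28.3% of that sum in knockout-labelled libraries and 28.1% in control, and Galnt1 held 23.1% and 24.4%. Galnt10 held 23.0% in knockout-labelled libraries and 8.97% in control. Its level in knockout-labelled libraries, 24.2 ± 1.06 CPM per kb, differed from that of Galnt1, 24.3 ± 0.492 CPM per kb, by less than their spread. In control, Galnt10 (11.8 ± 0.686 CPM per kb) and Galnt18 (11.3 ± 1.75 CPM per kb) were at levels that likewise differed by less than their spread, and Galnt18 held 8.54% of the sum there and none in knockout-labelled libraries.

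Promoter windows of 3 Galnt genes are shown because these genes moved in opposite directions: Galnt17 and Galnt15 were lost and Galnt10 rose. No window was matched for Galnt18 or Galnt4. Each window runs from 250 bases before to 50 bases after a transcription start in RefSeq, on build GRCm38.p6, 5′ to 3′ on the strand of the gene, and capitals mark each CG dinucleotide. Galnt17 is at chr5:131307473-131307772 on the minus strand, Galnt15 at chr14:32028853-32029152 on the plus strand and Galnt10 at chr11:57645192-57645491 on the plus strand.
Galnt17: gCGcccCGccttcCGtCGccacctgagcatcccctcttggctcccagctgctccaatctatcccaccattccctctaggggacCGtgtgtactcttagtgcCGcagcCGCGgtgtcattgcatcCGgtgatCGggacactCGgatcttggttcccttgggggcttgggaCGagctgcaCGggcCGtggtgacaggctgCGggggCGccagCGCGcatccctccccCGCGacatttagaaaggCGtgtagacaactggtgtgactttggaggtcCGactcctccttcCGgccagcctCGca
Galnt15: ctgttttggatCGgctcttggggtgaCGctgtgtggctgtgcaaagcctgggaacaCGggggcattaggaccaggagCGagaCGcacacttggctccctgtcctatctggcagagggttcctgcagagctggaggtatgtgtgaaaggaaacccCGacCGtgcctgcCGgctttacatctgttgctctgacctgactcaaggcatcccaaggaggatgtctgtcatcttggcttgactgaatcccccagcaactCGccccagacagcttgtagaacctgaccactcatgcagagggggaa
Galnt10: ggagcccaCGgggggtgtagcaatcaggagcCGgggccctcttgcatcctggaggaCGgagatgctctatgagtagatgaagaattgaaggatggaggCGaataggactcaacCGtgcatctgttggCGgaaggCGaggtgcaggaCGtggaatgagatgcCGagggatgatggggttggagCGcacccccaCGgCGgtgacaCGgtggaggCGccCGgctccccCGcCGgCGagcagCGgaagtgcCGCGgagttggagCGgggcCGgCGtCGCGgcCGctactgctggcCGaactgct
Galnt17, Galnt15 and Galnt10 hold 24, 9 and 28 CG dinucleotides, against a median of 7 over 32851 promoter windows of the same length. None of the 3 holds the GC box GGGCGG on either strand, a sequence bound by SP1 and found in 35.7% of all windows.

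**Figure D3:**
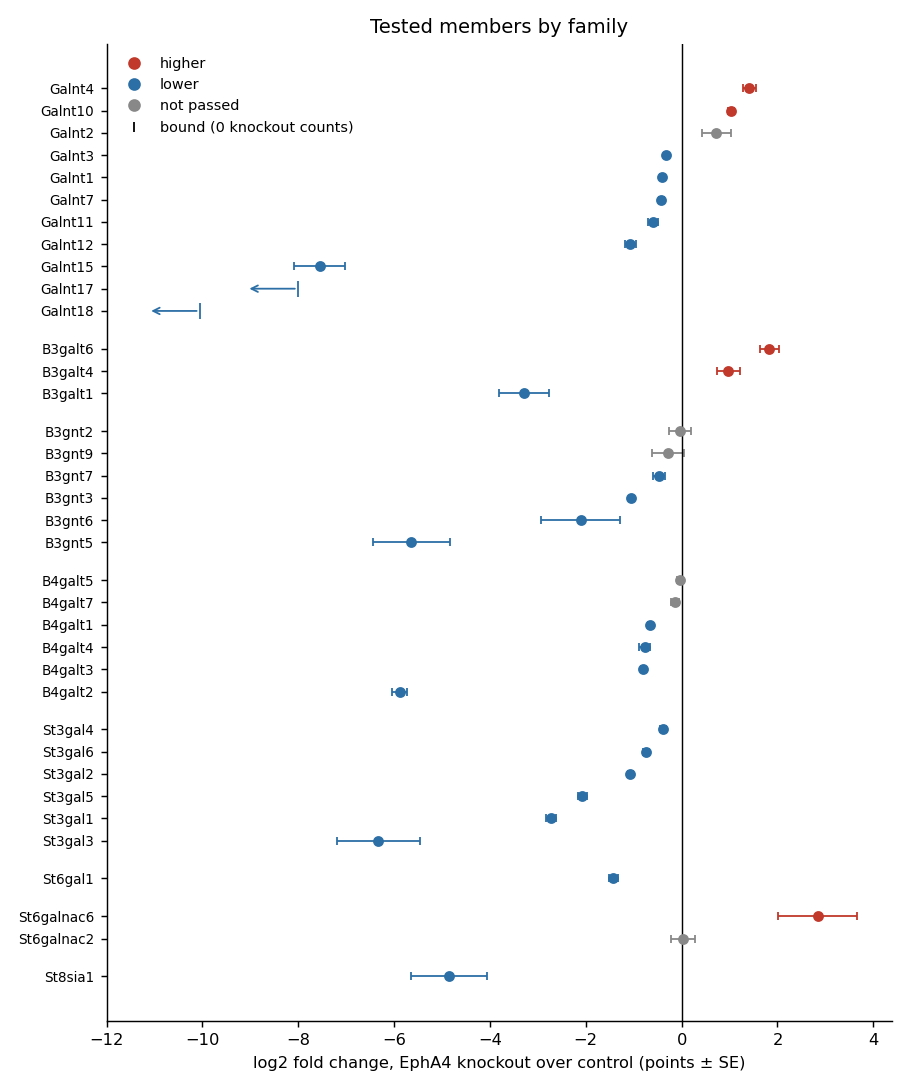
Log2 fold change (points, bars ± SE) of the 36 tested genes, knockout-labelled over control libraries, grouped by family; red is higher, blue lower and grey not passed. Galnt17 and Galnt18, with 0 counts in the knockout-labelled libraries, are drawn at their bound with an arrow; all 6 St3gal genes lie left of 0.

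The B3galt genes, which add galactose in a beta-1,3 linkage, did not move together. B3galt6, a galactosyltransferase of the glycosaminoglycan linker, had 8.67, 7.62 and 9.12 CPM in knockout-labelled libraries, against 2.02, 2.83 and 2.30 CPM in control. It was 3.55-fold higher with no overlap (log2 fold change 1.83, SE 0.20, edgeR adjusted p = 3.33e-05). B3galt4, which makes the ganglioside GM1 among others, had 4.22, 4.26 and 4.14 CPM in knockout-labelled libraries, against 2.02, 1.76 and 2.64 CPM in control, and was 1.96-fold higher (log2 fold change 0.97, SE 0.24, edgeR adjusted p = 0.00517). B3galt1, an enzyme of type 1 chains, had 0.42, 0.136 and 0.109 CPM in knockout-labelled libraries, against 2.08, 2.35 and 2.14 CPM in control. Its log2 fold change was -3.29 (SE 0.51, edgeR adjusted p = 0.000381), or -4.10 without EphA4 knockout replicate 1, the highest of the 3. B3galt2 and B3galt5 had 1 and 4 counts, each in a single knockout-labelled library.

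Among the B3gnt genes, which add GlcNAc in a beta-1,3 linkage, 1 gene dominated the counts and fell. B3gnt3, which in humans extends core 1 O-glycans and contributes to L-selectin ligands, had 161, 159 and 158 CPM in knockout-labelled libraries, against 336, 330 and 322 CPM in control. The groups lay far apart relative to their spread, with a log2 fold change of -1.05 (SE 0.03, edgeR adjusted p = 1.9e-08). Per kb of transcript it held 87.9% of the summed level of its family in knockout-labelled libraries and 91.6% in control, and the family as a whole had 59.3 ± 0.44 and 118 ± 1.63 CPM per kb. Reads of B3gnt2 and B3gnt4 may be missing from that sum, as both share most of their exon bases with other gene models. B3gnt7, an enzyme of keratan sulfate chains, had 12.6, 16.4 and 14.6 CPM in knockout-labelled libraries, against 19.5, 18.3 and 22.7 CPM in control. Its log2 fold change was -0.48 (SE 0.12, edgeR adjusted p = 0.00708), a call lost without control replicate 3 (log2 fold change -0.33, adjusted p = 0.0622).

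B3gnt5 starts lacto-series glycolipids, and it was nearly absent from the knockout-labelled libraries. It had 2, 0 and 0 counts there, against 33, 41 and 49 counts in control (0.89, 1.16 and 1.18 CPM), a log2 fold change of -5.64 (SE 0.81, edgeR adjusted p = 0.000223) that was -8.33 without EphA4 knockout replicate 1, which holds both counts. The ratio of control over knockout-labelled libraries was 59, with an exact 95% counting interval of 16 to 493. B3gnt6, the core 3 synthase, had 7, 4 and 0 counts in knockout-labelled libraries, against 17, 15 and 19 counts in control, a log2 fold change of -2.11 (SE 0.83, edgeR adjusted p = 0.0456). The call was lost in DESeq2 (log2 fold change -2.10), with no filter (-2.17), with the replicate block (-2.31) and without any of 5 of the 6 libraries. Its log2 fold change was -2.93 without EphA4 knockout replicate 1, where the call was kept, and -1.48 without EphA4 knockout replicate 3. Neither B3gnt2, a polylactosamine synthase, nor B3gnt9 passed, at log2 fold changes of -0.04 and -0.28. Of the exon bases of B3gnt2, 58.6% also belong to Gm28048, which had 0 counts in all libraries. B3gnt4 and B3gnt8 had 21 and 7 counts over the knockout-labelled libraries and 25 and 11 over control, and were not tested; 93.2% of the exon bases of B3gnt4 overlap Diablo.

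The B4galt genes, which add galactose in a beta-1,4 linkage to N-glycans, O-glycans and glycolipids, had 1 member that was almost lost and others that fell moderately or did not pass. B4galt2 had 0.504, 0.352 and 0.463 CPM in knockout-labelled libraries, against 23.9, 27.3 and 26.9 CPM in control. It was 58.8-fold lower in knockout-labelled libraries with no overlap (log2 fold change -5.88, SE 0.16, edgeR adjusted p = 9.28e-09). Its neighbour Ccdc24, which shares 28.2% of its exon bases, averaged 0.11 CPM in knockout-labelled libraries and 0.284 CPM in control. B4galt1, the main enzyme of N-glycan galactosylation, had 59.5, 57.1 and 55.1 CPM in knockout-labelled libraries, against 91.0, 91.3 and 87.8 CPM in control, and fell by 0.65 on the log2 scale (SE 0.04, edgeR adjusted p = 1.86e-06). B4galt3 had 48.2, 45.7 and 47.7 CPM in knockout-labelled libraries, against 83.7, 80.8 and 83.7 CPM in control, and fell by 0.81 (SE 0.04, edgeR adjusted p = 4.48e-07). Neither gene had a knockout-labelled library within the control range, and B4galt4 fell by a similar 0.77.

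B4galt5 and B4galt7 did not pass the test. B4galt5, which makes lactosylceramide, had 41.0, 43.3 and 39.0 CPM in knockout-labelled libraries, against 42.7, 41.2 and 42.0 CPM in control, with a log2 fold change of -0.03 (SE 0.06). B4galt7, the enzyme that adds the galactose before B3galt6 in the glycosaminoglycan linker, had 23.5, 23.0 and 23.5 CPM in knockout-labelled libraries, against 28.7, 24.7 and 23.8 CPM in control, with a log2 fold change of -0.14 (SE 0.08, edgeR adjusted p = 0.156) although the groups did not overlap. B4galt6, the other lactosylceramide enzyme, had 0 counts in every library. Per kb the B4galt sum was 63.3 ± 1.5 CPM in knockout-labelled libraries and 105 ± 1.79 in control. B4galt5 held 15.4% of it in knockout-labelled libraries and 9.49% in control, B4galt7 16.8% and 11.2%, and B4galt2 0.3% and 10.7%.

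All 6 St3gal genes, which attach sialic acid to galactose in an alpha-2,3 linkage, were lower in the knockout-labelled libraries, with no overlap for any of them. Over all tested genes, 38.8% were lower and 76.1% had groups that did not overlap. St3gal3 reached the filter through the control libraries alone. St3gal1, which caps core 1 O-glycans, had 9.57, 7.45 and 9.99 CPM in knockout-labelled libraries, against 62.7, 59.9 and 56.9 CPM in control. It was 6.64-fold lower in knockout-labelled libraries (log2 fold change -2.73, SE 0.11, edgeR adjusted p = 7.02e-08). St3gal5, the GM3 synthase that opens ganglioside synthesis, had 5.99, 5.53 and 5.88 CPM in knockout-labelled libraries, against 25.0, 24.1 and 23.9 CPM in control (log2 fold change -2.07, SE 0.09, edgeR adjusted p = 1.07e-07). St3gal2, which acts on O-glycans and gangliosides, had 39.2, 35.6 and 37.1 CPM in knockout-labelled libraries, against 76.2, 80.6 and 78.5 CPM in control (log2 fold change -1.07, SE 0.05, edgeR adjusted p = 2.5e-07).

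St3gal3, which acts on type 1 and type 2 chains, was the member of this family with the lowest counts. It had 0, 6 and 0 counts in knockout-labelled libraries, against 166, 160 and 208 counts in control. All 6 of its reads came from EphA4 knockout replicate 2; the log2 fold change was -6.33 (SE 0.86, edgeR adjusted p = 0.000162), or -10.4 without that library and -5.71 without EphA4 knockout replicate 3. St3gal6 and St3gal4, which mainly act on type 2 chains, fell least. St3gal6 had 46.8, 47.6 and 43.0 CPM in knockout-labelled libraries, against 80.9, 72.9 and 75.4 CPM in control (log2 fold change -0.74, SE 0.06, edgeR adjusted p = 5.19e-06), and 26% of its exon bases overlap Dcbld2. Dcbld2 was itself lower, with 113 ± 2.47 CPM in knockout-labelled libraries and 146 ± 0.964 CPM in control (SD, n = 3; log2 fold change -0.36, edgeR adjusted p = 1.1e-05). St3gal4 had 29.2, 28.9 and 28.3 CPM in knockout-labelled libraries, against 38.2, 40.0 and 34.6 CPM in control (log2 fold change -0.38, SE 0.07, edgeR adjusted p = 0.000756). Per kb the family summed to 37.3 ± 0.953 CPM in knockout-labelled libraries and 76.6 ± 1.97 in control. The share of St3gal4 was 36.8% in knockout-labelled libraries and 23.4% in control, and that of St3gal1 was 4.21% and 13.6%.

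B4galt2 and St3gal3 lie near each other on chromosome 4, and their promoter windows are shown because both genes were almost lost while genes between them were not. The windows are as for the Galnt genes, from RefSeq on GRCm38.p6, with CG dinucleotides in capitals: B4galt2 at chr4:117883427-117883726 and St3gal3 at chr4:118134897-118135196, both on the minus strand.
B4galt2: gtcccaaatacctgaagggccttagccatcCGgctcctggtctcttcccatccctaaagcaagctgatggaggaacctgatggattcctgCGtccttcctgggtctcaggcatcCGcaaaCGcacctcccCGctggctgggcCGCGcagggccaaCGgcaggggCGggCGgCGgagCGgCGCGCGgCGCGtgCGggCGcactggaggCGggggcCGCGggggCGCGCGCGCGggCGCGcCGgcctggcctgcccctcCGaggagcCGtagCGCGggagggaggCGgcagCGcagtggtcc
St3gal3: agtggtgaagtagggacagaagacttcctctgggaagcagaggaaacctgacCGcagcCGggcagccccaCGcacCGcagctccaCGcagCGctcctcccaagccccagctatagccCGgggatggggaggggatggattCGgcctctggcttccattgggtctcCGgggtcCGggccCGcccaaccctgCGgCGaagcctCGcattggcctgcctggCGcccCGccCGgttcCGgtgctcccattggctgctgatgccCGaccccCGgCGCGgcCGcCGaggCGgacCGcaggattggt
Of 4 coding genes that RefSeq places between them, a set looked up after both values were seen, 3 were tested, and all 3 were well above 0. Atp6v0b, a proton pump subunit, averaged 74.5 ± 0.419 CPM in knockout-labelled libraries and 97.8 ± 3.67 CPM in control, Ipo13 43.6 ± 2.95 and 55.3 ± 2.7 CPM, and Dph2 24.7 ± 1.88 and 11.6 ± 0.243 CPM (SD, n = 3). Atp6v0b and Ipo13 were lower and Dph2 was higher (log2 fold changes -0.39, -0.34 and 1.08). The St3gal3 window matches the CCAAT box at 4 places over both strands, which 1.06% of all windows do, and B4galt2 at none; each holds 2 matches to GGGCGG.

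Across all members with a window, the ranges of the groups overlapped. RefSeq windows were matched for 42 of the 57 genes, taking for each gene the window with the most CG dinucleotides. The 6 matched genes that fell by at least 4 on the log2 scale held 9 to 36 CG dinucleotides, the 13 matched genes that fell by less 10 to 41, and the 4 matched genes that rose 2 to 48. The GC box was present in 4 of those 6 genes, 11 of those 13 and 1 of those 4. The TATA box TATAAA was in none of the 42 chosen windows. It was present in 13.6% of all windows on either strand. Those were not chosen for their CG content, so shares over all windows are not like for like with the counts here.

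St6gal1, which adds alpha-2,6 sialic acid to N-glycans, had 9.29, 9.16 and 7.59 CPM in knockout-labelled libraries, against 23.6, 23.5 and 22.7 CPM in control. It was 2.68-fold lower in knockout-labelled libraries with no overlap (log2 fold change -1.42, SE 0.10, edgeR adjusted p = 2.24e-06), and its relative St6gal2 had 1 count in all. Of the St6galnac genes, which attach alpha-2,6 sialic acid to GalNAc, 2 of 6 were tested. St6galnac6, which acts on gangliosides, had 23, 24 and 29 counts in knockout-labelled libraries, against 0, 2 and 9 counts in control. Every knockout-labelled library was above every control library, at a log2 fold change of 2.84 (SE 0.83, edgeR adjusted p = 0.0128); it was 4.53 without control replicate 3, and the call was lost without control replicate 2 (log2 fold change 2.64, adjusted p = 0.0579). St6galnac2, an O-glycan enzyme, had 4.48, 3.55 and 3.76 CPM in knockout-labelled libraries, against 5.15, 3.03 and 3.41 CPM in control, and did not pass (log2 fold change 0.02, SE 0.25); its symbol stands for 2 loci in the annotation. St6galnac1, the enzyme of the sialyl-Tn antigen, had 0 counts in the knockout-labelled libraries and 5 counts in 1 control library, and St6galnac3, St6galnac4 and St6galnac5 had 0, 3 and 6 counts in total.

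The St8sia genes, which link sialic acid to sialic acid, were close to 0 in the knockout-labelled libraries. St8sia1, the GD3 synthase, had 1, 0 and 7 counts there, against 85, 71 and 96 counts in control (2.29, 2.01 and 2.30 CPM). Its log2 fold change was -4.85 (SE 0.79, edgeR adjusted p = 0.000508), or -6.96 without EphA4 knockout replicate 3 and -4.27 without EphA4 knockout replicate 2. St8sia4, a polysialic acid synthase, had 0 counts in all knockout-labelled libraries, against 24, 6 and 17 counts in control; it was not tested, and with the same floor it was at least 15.0-fold lower. St8sia2, St8sia3, St8sia5 and St8sia6 had 0 counts in all 6 libraries.

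**Figure D4:**
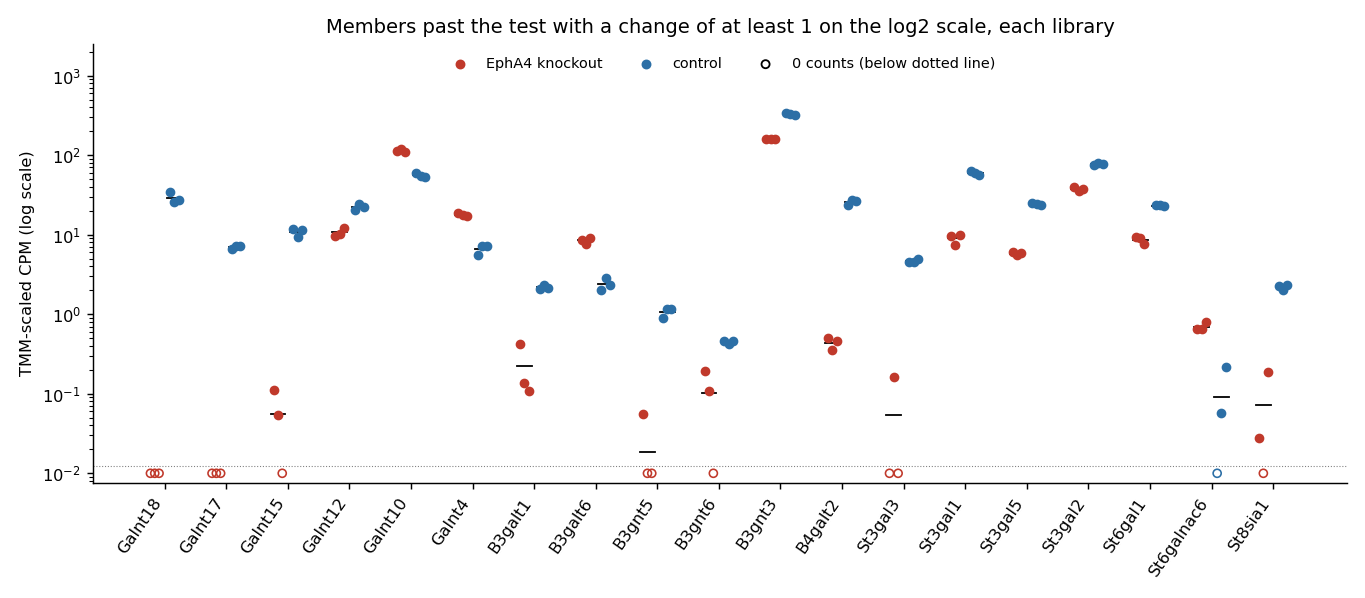
TMM-scaled CPM (log scale) in each knockout-labelled (red) and control (blue) library of the 19 genes that passed the test with a change of at least 1 on the log2 scale; black bars are group means and open circles below the dotted line are libraries with 0 counts. The 4 higher genes are Galnt10, Galnt4, B3galt6 and St6galnac6. The red and blue points do not overlap for any gene shown, but the genes were chosen by their change between these same libraries. Over all tested genes, 76.1% did not overlap.

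Other genes of glycan synthesis, in 11 lists, were lower more often than higher as well. Of 134 tested genes in these lists 79 were lower, 31 higher and 24 did not pass, beside 38.8% lower and 32.7% higher over all tested genes. Some of these genes also reached the filter on low counts through 1 group alone. Examples are Cd34, Mgat3, Gfpt2, Csgalnact1, Xylt1 and Chsy3 through control, and Casd1 and Fut9 through the knockout-labelled libraries. Such genes had to differ, so they are no independent support for a difference. How many of the list genes did so was not counted. In the O-glycan core list, C1galt1, the core 1 synthase, fell by 0.28 on the log2 scale and Gcnt4, a core 2 enzyme, by 2.23. Gcnt1, the main core 2 enzyme, rose to 20.3 ± 0.566 CPM in knockout-labelled libraries, against 11.2 ± 1.52 CPM in control (log2 fold change 0.86, edgeR adjusted p = 0.000122). The other 3 of the 6 tested genes did not pass, among them the core 1 chaperone gene C1galt1c1. Genes of acceptor proteins that carry O-glycans had 3 higher and 6 lower of 11. Muc1 fell to 2.41 ± 0.197 CPM in knockout-labelled libraries, against 23.9 ± 1.95 CPM in control, and Muc4 fell by 3.71 on the log2 scale. Cd34 had 0, 0 and 7 counts in knockout-labelled libraries, against 2772, 2666 and 3314 counts in control. The 3 higher genes, Cd44, Cd24a and Sdc1, were of higher level and were named after their values were seen. They averaged 1180 ± 24.1, 291 ± 7.59 and 284 ± 5.99 CPM in knockout-labelled libraries. Their control means were 992 ± 41, 206 ± 8.52 and 260 ± 4.91 CPM. Podxl, also named afterwards, averaged 163 CPM in both groups and did not pass.

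Transcripts of most genes for the supply of sugar donors were also lower, with 17 of 21 tested genes lower and 4 higher. The supply itself was not measured. Galm, Galt and Galk2, enzymes of galactose and GalNAc use, fell by 4.53, 1.72 and 1.5 on the log2 scale. The 4 higher genes were Gfpt1, which opens the hexosamine pathway, and the transporter genes Slc35a3, Slc35b4 and Slc35d1. Their log2 fold changes were 0.19, 0.80, 0.50 and 0.78. Gfpt2, a relative of Gfpt1 among the 17 lower genes, had 0 counts in every knockout-labelled library, against 137, 106 and 134 counts in control. With the floor of 3 counts Gfpt2 was at least 120.5-fold lower. Gfpt1, Gfpt2 and these transporters were named after their values were seen. Sialic acid synthesis, transport and removal had 1 higher and 4 lower of 10. Gne and Cmas, the entry enzyme and the enzyme that activates sialic acid, stood at log2 fold changes of -0.08 and -0.01 without passing, while the transporter gene Slc17a5, the sialidase gene Neu1 and the esterase gene Siae fell by 1.52, 0.89 and 0.84. The 1 higher gene, Casd1, which O-acetylates sialic acid, had 105, 107 and 86 counts in knockout-labelled libraries and 0 counts in every control library; it, Gne and Cmas were also named after their values were seen.

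N-glycan branching genes had 3 higher and 6 lower of 12. Mgat3, which adds the bisecting GlcNAc, fell to 0.0913 ± 0.068 CPM in knockout-labelled libraries, against 19.8 ± 0.892 CPM in control, Man1c1 fell by 4.69 on the log2 scale and Man1a2 rose by 1.40. Fucosylation genes had 5 higher and 9 lower of 16, with Fuk, Fuca1 and Fut10 falling by 1.25, 1.16 and 0.85. Larger rises were seen in genes of lower level, named after their values were seen: the fucosyltransferase gene Fut1 rose to 3.15 ± 0.218 CPM in knockout-labelled libraries, against 0.534 ± 0.148 CPM in control, and Fut9 had 28, 20 and 18 counts, against 4, 0 and 0 counts in control. Glycosphingolipid genes had 2 higher and 7 lower of 9, with the lysosomal hydrolase genes Glb1 and Gla falling by 1.63 and 1.03. Glycosaminoglycan genes had 3 higher and 10 lower of 15, with Xylt2 and Ext2 falling by 0.69 and 0.60 and Extl2 rising by 0.58. Of lower level and named after their values were seen, Csgalnact1 and Xylt1 had 0 counts in every knockout-labelled library. Control had 105, 91 and 92 counts of Csgalnact1 and 40, 24 and 19 counts of Xylt1. Chsy3 had 0, 1 and 0 counts in knockout-labelled libraries, against 102, 93 and 104 counts in control. Other GalNAc, GlcNAc and glucuronyl transferases had 5 higher and 5 lower of 13; Pomgnt1 and B4galnt3 rose by 1.23 and 1.15 and B3glct fell by 0.75. Galectins, which bind galactose-bearing glycans, had 2 higher and 4 lower of 6, and Lgals9 fell to 20.7 ± 0.498 CPM in knockout-labelled libraries, against 226 ± 20.6 CPM in control, while Lgals8 fell by 1.28 and Lgalsl rose by 0.27. Golgi tethering genes had 2 higher and 9 lower of 15, with Cog4, Cog3 and Cog6 falling by 1.08, 0.53 and 0.51.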

How the data were processed

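The table that the authors deposited holds unnormalized counts by gene symbol for the 6 libraries. The submitters' processing notes name STAR and GRCm39, without versions; how reads were counted, with which strand setting and annotation, is not given in the sources used here. Its symbols equal those of GENCODE M21, built on an earlier assembly, which gave transcript lengths and exon overlaps. Since the strand setting is unknown, overlapping genes cannot be told apart.

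After filterByExpr and TMM scaling, 15199 genes were tested two-sided by the quasi-likelihood test of edgeR 4.0.16 in R 4.3.3, with group as the only term; calls are at a Benjamini-Hochberg adjusted p of 0.05. SE was derived from the log2 fold change and the F statistic (absolute change over the root of F). Folds against groups with 0 counts use 3 counts in the group as the floor; floors and intervals cover counting error only, and 1 count equals 0.024 to 0.0283 CPM. Libraries of a group differed by more than sampling noise. Scripts were tested on simulated data. The members and lists were chosen with earlier results of these data known.

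Named were members past the test with a log2 change of at least 1, the 2 highest tested members of each family per kb, and of each list up to 3 called genes by size of change, their average log2 CPM being at least 1; 1 gene so named is not reported here. Alternatives were relative log expression, upper-quartile or no factors, DESeq2 1.42.0, limma-voom (limma 3.58.1), no low-count filter or one of 5 CPM in 3 libraries, a replicate block, removal of the 20 highest genes, an adjusted p of 0.01 and each replicate left out. Promoter windows come from RefSeq (GRCm38.p6), matched by symbol, and motifs were sought on both strands. Figures were drawn with matplotlib 3.10.9.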

Additional observations from a re-analysis of the deposited data

How the results depend on the processing

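The count of transferase genes past the test was 30 and stayed between 28 and 31 when each library was left out, with 4 to 6 higher and 23 to 26 lower. With a filter of 5 CPM in 3 libraries, 25 of the genes were tested and 3 were higher, since fewer genes of low count entered. The other glycosylation genes past the test numbered 110, and 101 to 109 without 1 library. Over Epha4 and the 36 tested genes, 30 kept their direction and call in each of 16 alternatives that could test them. B3gnt6 lost its call in DESeq2 (adjusted p = 0.0518), with no filter (0.105), with the replicate block (0.0772), at the threshold of 0.01 and without any library other than EphA4 knockout replicate 1 (adjusted p = 0.0343 to 0.123 over all left-out libraries). St6galnac6 missed the threshold of 0.01. Genes near 0 changed sign without passing: B4galt5 had log2 fold changes of 0.002 with relative log expression factors and in DESeq2, 0.005 with the 20 highest genes left out and -0.038 to 0.064 over left-out libraries, St6galnac2 -0.041 with no filter and -0.091 to 0.333, and B3gnt2 -0.073 to 0.129. The cause was not tested. The replicate numbers do not pair the samples: deviations of same-numbered libraries had correlations of -0.003, 0.029 and 0.008, and with the replicate block 29 transferase genes and 10339 of all genes passed, against 10867. In limma-voom, Galnt17 and Galnt18 had fitted log2 fold changes of -9.0 and -11.0, which rest on prior counts, and St3gal3, St6galnac6, St8sia1 and B3gnt6 had -7.18, 3.55, -5.51 and -2.72 with their calls kept.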
